A study of Homo sapiens with 4 samples.

Results

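The genes of the tumour necrosis factor (TNF) superfamily were examined in a map of H3K27ac, the acetylated form of histone H3 found at active promoters and enhancers. Members were all regions that the authors had named with a gene whose symbol begins with TNFRSF (receptors) or TNFSF (ligands), or is TNF, LTA, LTB, LTBR, CD40, CD40LG, CD27, CD70, FAS, FASLG, NGFR, EDAR, EDA2R or RELT. This gave 237 distinct regions on 240 lines, out of 91107 regions, beside 41 gene symbols. Of 46 family symbols sorted by role, 40 had a region, and TNF, TNFSF15, TNFRSF4, TNFRSF10C, TNFRSF13C and TNFRSF25 have no acetylation values here. The remaining symbol with regions, TNFSF12-TNFSF13, is a readthrough of neighbouring ligand genes.

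The cells were A375, an established human melanoma line, grown in DMEM with serum. Octanoate, a fatty acid of medium chain length, was added at 1 mM in one group of 2 libraries, and isopropanol, its vehicle, in the other group of 2. Treatment lasted 48 hours in both, and no genotype or transgene is given. The deposited comparison gives for each region a mean level in normalized counts, a log2 fold change with a standard error and p-values, and no value per library, so no value per sample can be shown. Every error below is the standard error from the authors' model. Which group is the numerator of the fold change is not stated. Changes are therefore called positive or negative, and no gain or loss under octanoate can be read from them. Genes were assigned to regions by the authors, and an assignment is not evidence of regulation.

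TNF family ligands are mostly membrane-bound or shed trimers that cluster their receptors on a target cell. Receptors with a death domain can recruit FADD or TRADD and start caspase-driven cell death. Other members recruit TRAF adaptors and turn on NF-kappaB and stress kinases, and decoy receptors bind ligands without passing on a death signal. Many ligands and co-stimulatory receptors are best known from lymphocytes and myeloid cells, whereas the death receptors and the main TNF receptor are found on most cell types, melanoma included.

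Markers of the cell type were checked first. In the authors' deposited table all 5 dedifferentiated melanoma genes examined (AXL, EGFR, SOX9, JUN and FOSL1) had a region over the start whose mean level reached 10, the highest being FOSL1 at 1028. Among the 8 lineage genes, SOX10, MITF, PMEL and S100B were marked in the authors' deposited table, with levels from 55.2 to 774, while MLANA, TYR, DCT and TYRP1 had no such region. T cell, B cell and keratinocyte markers were marked at 0 of 4, 0 of 3 and 0 of 3 starts in the authors' deposited table. Of the myeloid markers CSF1R (58.7) and LYZ (42.9) were marked, and CD14 and SPI1 were not, and of the endothelial ones only KDR (13.9) was.

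RefSeq promoters were at hand for 30 of the family's symbols, 27 of them with regions and the others being TNF, TNFSF15 and TNFRSF25, and 8 stretches are shown because they span the range of acetylation at the family's starts and include the NF-kappaB matches discussed with them. Each is the run of 250 bases before the gene's outermost listed start (GRCh38.p14), 5′ to 3′ on the gene's strand. Capitals mark every match, on either strand, to 5 motifs: the NF-kappaB consensus, the AP-1 site TGANTCA, the TATA box TATAAA, the GC box GGGCGG and the E-box CACGTG. Among regions to which the authors gave a distance of 0 from a start, TNFRSF1A and LTBR carried the 2 highest levels per kb. TNFSF9 had the highest among the ligands there, and TNFRSF9 the lowest of all. FAS encodes a death receptor, TNFRSF14 and LTB hold an NF-kappaB match, and TNFSF18 lies near one of the calls, as regions with an adjusted p-value under 0.05 are named here.
TNFRSF1A, chr12:6342077-6342326, minus strand: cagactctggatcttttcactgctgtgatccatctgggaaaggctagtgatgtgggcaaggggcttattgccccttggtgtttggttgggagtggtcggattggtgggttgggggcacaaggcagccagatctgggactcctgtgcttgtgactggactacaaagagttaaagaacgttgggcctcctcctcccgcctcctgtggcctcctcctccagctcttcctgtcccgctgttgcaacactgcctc
LTBR, chr12:6383912-6384161, plus strand: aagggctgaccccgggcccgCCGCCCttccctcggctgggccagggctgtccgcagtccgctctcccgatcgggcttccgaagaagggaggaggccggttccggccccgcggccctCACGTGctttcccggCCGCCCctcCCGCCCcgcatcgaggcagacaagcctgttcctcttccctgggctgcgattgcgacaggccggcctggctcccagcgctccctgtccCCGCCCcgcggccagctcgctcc
TNFSF9, chr19:6530776-6531025, plus strand: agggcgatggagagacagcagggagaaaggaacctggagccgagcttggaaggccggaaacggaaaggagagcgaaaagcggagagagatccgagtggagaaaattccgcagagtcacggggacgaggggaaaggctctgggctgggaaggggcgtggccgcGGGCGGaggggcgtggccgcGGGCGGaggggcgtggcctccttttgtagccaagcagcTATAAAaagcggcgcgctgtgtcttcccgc
FAS, chr10:88990548-88990797, plus strand: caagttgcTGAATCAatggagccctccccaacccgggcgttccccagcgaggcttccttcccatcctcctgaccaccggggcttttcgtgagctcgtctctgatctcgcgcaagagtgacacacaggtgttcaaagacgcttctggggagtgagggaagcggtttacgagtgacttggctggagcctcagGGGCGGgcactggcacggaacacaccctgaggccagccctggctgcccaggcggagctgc
TNFRSF14, chr1:2556121-2556370, plus strand: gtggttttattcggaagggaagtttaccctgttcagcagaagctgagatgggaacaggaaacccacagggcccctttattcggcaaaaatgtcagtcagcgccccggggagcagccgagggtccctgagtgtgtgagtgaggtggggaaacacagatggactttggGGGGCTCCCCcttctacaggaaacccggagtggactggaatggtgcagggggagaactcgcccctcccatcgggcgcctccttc
TNFRSF9, chr1:7940840-7941089, minus strand: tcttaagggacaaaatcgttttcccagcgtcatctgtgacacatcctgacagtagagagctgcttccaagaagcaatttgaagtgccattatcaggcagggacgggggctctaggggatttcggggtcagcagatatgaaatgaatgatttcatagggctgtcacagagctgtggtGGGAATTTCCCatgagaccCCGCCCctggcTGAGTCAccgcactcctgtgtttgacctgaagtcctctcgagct
LTB, chr6:31582426-31582675, minus strand: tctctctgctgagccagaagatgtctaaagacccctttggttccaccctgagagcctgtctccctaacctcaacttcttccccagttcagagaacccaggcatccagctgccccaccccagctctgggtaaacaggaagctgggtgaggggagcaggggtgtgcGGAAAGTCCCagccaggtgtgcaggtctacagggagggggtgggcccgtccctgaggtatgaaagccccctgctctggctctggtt
TNFSF18, chr1:173050942-173051191, minus strand: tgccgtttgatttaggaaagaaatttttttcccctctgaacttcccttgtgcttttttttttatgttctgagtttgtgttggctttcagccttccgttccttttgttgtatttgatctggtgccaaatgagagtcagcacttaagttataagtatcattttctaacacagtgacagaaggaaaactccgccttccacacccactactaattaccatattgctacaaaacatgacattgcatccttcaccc

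The stretches before TNFRSF1A and TNFSF18 held no match to any of the 5 motifs. That of LTBR held 4 GC boxes and an E-box, and that of TNFSF9 held 2 GC boxes and a TATA box whose first base lies 30 bases before the start. In TNFRSF9 the NF-kappaB consensus matched on both strands at overlapping positions, beside an AP-1 site and a GC box. An NF-kappaB match was present before at least 1 listed start of 7 of the 30 family genes (23.3%), against 6.28% of all 27305 symbols in the RefSeq promoter table. The 7 genes were FAS, LTA, LTB, TNFRSF14, TNFRSF9, TNFSF13 and TNFSF14. AP-1 matches were found for 6 of 30 (20.0% against 8.06%), GC boxes for 20 of 30 (66.7% against 46.2%), TATA boxes for 6 of 30 (20.0% against 13.0%) and E-boxes for 3 of 30 (10.0% against 7.73%). A gene with several listed starts has more bases in which a match can occur, and chromosome 8 was left out for the family only. Among the genes with an NF-kappaB match, the regions over the starts of FAS, TNFRSF14, TNFSF13 and TNFRSF9 had values of 0.50, 0.41, 0.36 and 0.05 for the log2 fold change listed in the authors' deposited table, on both sides of the median of 0.35 for all tested start regions (those with an adjusted p-value). The match of FAS lies before another start than the one shown, whose stretch holds an AP-1 site and a GC box.

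Acetylation over gene starts was described next, since it marks promoters in use. A region over the start (a distance of 0 in the authors' deposited table) was listed for 22 of the 41 symbols, on 21 distinct regions because TNFSF12 and its readthrough share one. Levels per kb of region are compared here, because wider regions collect more reads. They ran from 12.1 to 47.1 normalized counts per kb in the authors' deposited table, with a median of 23.9, and the median over all 10642 start regions was 25.3.

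Death domain receptors held 6 of these starts. TNFRSF1A, the main receptor for soluble TNF, had the widest region, 15254 bases (chr12:6331128-6346382), with a level of 718, or 47.1 per kb, in the authors' deposited table. Its level was above that of 99.7% of all start regions, and its level per kb above that of 98.9%. FAS, which triggers apoptosis when bound by FASLG, had 30.3 per kb (chr10:88989745-88994739), a region that in RefSeq also overlaps the gene ACTA2. NGFR (23.0), a nerve growth factor receptor of the neural crest, TNFRSF21 (22.1), another death receptor, and the TRAIL receptor TNFRSF10A (20.9) lay close together per kb in the authors' deposited table. The other TRAIL receptor, TNFRSF10B, had a level of 134 over 5359 bases there.

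TRAF-binding receptors held both high and low starts. LTBR, which binds lymphotoxin and LIGHT and feeds the alternative NF-kappaB pathway, had 44.7 per kb in the authors' deposited table. TNFRSF14 (35.9), the receptor for LIGHT, and RELT (34.8) followed, then TNFRSF1B (23.5), the second TNF receptor, and TNFRSF19 (22.1). The co-stimulatory receptors CD40 (18.4) and TNFRSF9 (12.1) were lowest in the authors' deposited table, and their levels of 17.7 and 12.1 were too low to have an adjusted p-value. TNFRSF12A, the receptor for the ligand TWEAK, was named with a region of 52.5 per kb (chr16:3019519-3025237), above TNFRSF1A. In RefSeq this region spans the whole gene, its start included. The authors' deposited table gives a distance of -1075 bases to TNFRSF12A, with the negative sign placing the start at lower coordinates, and names the region also with CLDN6, HCFC1R1 and THOC6, so its level and its 0.40 ± 0.23 on the log2 scale cannot be given to 1 gene. The same holds for a region of 47.6 per kb shared by CD27 and TAPBPL (0.28 ± 0.23).

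The 2 decoy receptors with a marked start were TNFRSF6B, which binds FASLG, at 30.5 per kb, and TNFRSF11B (osteoprotegerin), which binds the bone ligand TNFSF11, at 28.7 per kb in the authors' deposited table. The TNFRSF6B region is shared with ARFRP1 and the readthrough RTEL1-TNFRSF6B, and the TNFRSF11B region also overlaps the gene COLEC10 in RefSeq. Among ligands, TNFSF9 (32.2 per kb) and CD70 (28.5), which stimulate T cells through TNFRSF9 and CD27, led the authors' deposited table. TNFSF12 (23.9), TNFSF13 (20.7), TNFSF13B (19.4) and TNFSF18 (13.4) were lower there. The ligands FASLG, TNFSF10, TNFSF4, TNFSF8, TNFSF11, TNFSF14, CD40LG, LTA and LTB had no region with a distance of 0. For TNFSF4 the start listed by RefSeq does lie in a region, with a level of 21.3 and 0.05 ± 0.42 (log2 fold change and standard error), to which the authors' deposited table gives a distance of 1253 bases. The TNFSF18 start of RefSeq conversely falls just outside the region with a distance of 0. The nearest LTB region, inside the gene and 354 bases from its start, had 25.6 per kb in the authors' deposited table. Away from starts, a CD70 region had 40.4 per kb (0.24 ± 0.23), and one shared by TNFSF13, its readthrough, SENP3 and SENP3-EIF4A1 had 32.8 per kb (0.40 ± 0.23).

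**Figure D1:**
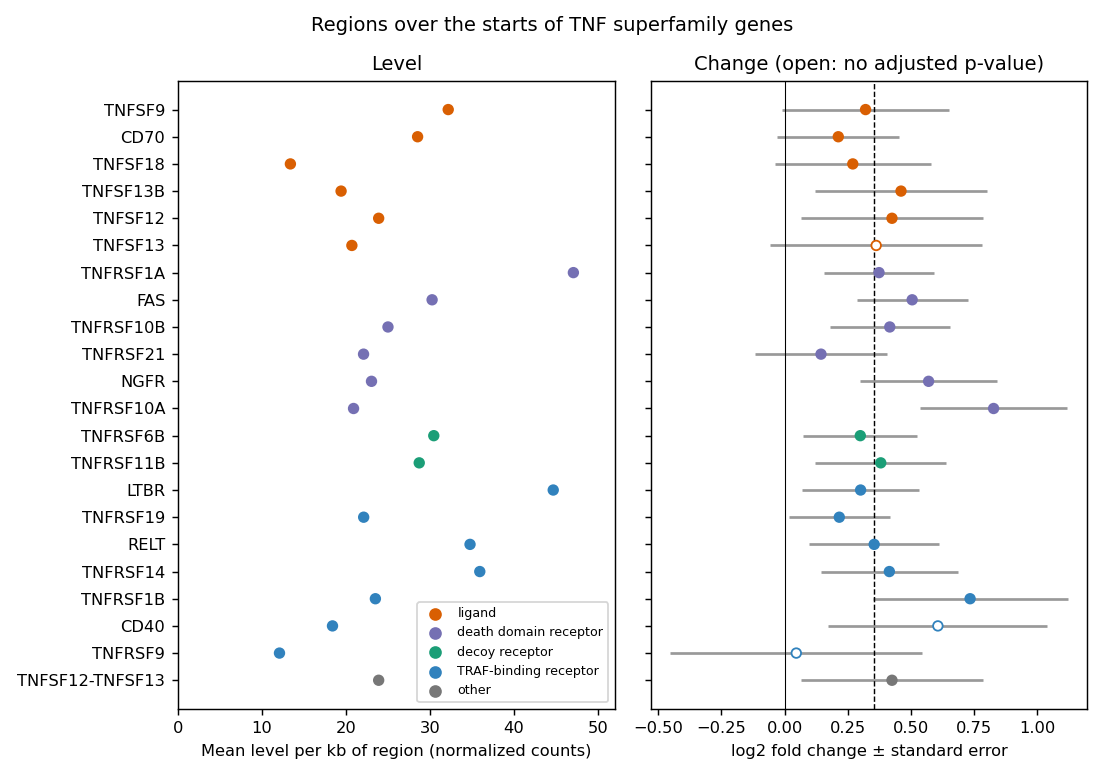
Regions over the starts of 22 family genes, ordered by role. The left panel gives the mean level per kb of region in normalized counts and the right panel the log2 fold change with its standard error. Open circles have no adjusted p-value. The dashed line is the median of 0.35 over all start regions with an adjusted p-value. TNFRSF1A and LTBR are highest on the left, and every point on the right lies above 0.

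No start region of the family passed the threshold of an adjusted p-value under 0.05. In the authors' deposited table all 21 start regions had a positive log2 fold change, from 0.05 for TNFRSF9 to 0.83 for TNFRSF10A, with a median of 0.37. The same held for 97.7% of all start regions of the authors' deposited table, whose median was 0.36, so the family's starts lay where starts in general did. Of the 9996 start regions with an adjusted p-value, 86 (0.86%) were calls, against 0 of 18 in the family by the DESeq2 values of the authors' deposited table, where 3 (16.7%) had an unadjusted p-value under 0.05, against 1922 of all 9996 (19.2%).

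Those 3 were the starts of TNFRSF10A, NGFR and FAS, a share below that of all starts. TNFRSF10A (chr8:23223160-23226101), a receptor through which TRAIL kills tumour cells, had 0.83 ± 0.29 (log2 fold change and standard error, as all such pairs below) in the authors' deposited table, a ratio of 1.77, with p = 0.00463 and adjusted p = 0.112 by DESeq2. NGFR (chr17:49494849-49499083) had 0.57 ± 0.27 and FAS 0.50 ± 0.22 in the authors' deposited table, with DESeq2 adjusted p-values of 0.240 and 0.203. TNFRSF1A, with the highest level of the family, had 0.37 ± 0.22, close to the median of all starts, and TNFRSF21 was lowest of the role at 0.14 ± 0.26 in the authors' deposited table. Differences between starts were not tested.

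Across all member regions, 109 had an adjusted p-value and 128, with levels up to 18.2, did not. Of the 109, 2 passed at an adjusted p-value under 0.05 by DESeq2 in the authors' deposited table, which is 1.83% against 1.67% of all 36436 tested regions. Both were positive, as were 1.65% of the tested regions, and 0 were negative, against 0.0192%. After centring on the median of tested regions 0 passed, against 0.124% of all, and 15 had an unadjusted p-value under 0.05 as deposited. A share this near the background is no result about the family. At an unadjusted p-value under 0.05 the 15 were all positive (13.8%), against 17.9% positive and 0.475% negative among all tested regions of the authors' deposited table. The median log2 fold change was 0.29 over all 237 regions (quartiles -0.02 and 0.50) and 0.28 over all regions of the authors' deposited table (quartiles -0.02 and 0.54). Positive values made up 73.8% of the member regions and 73.7% of all regions in the authors' deposited table.

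**Figure D2:**
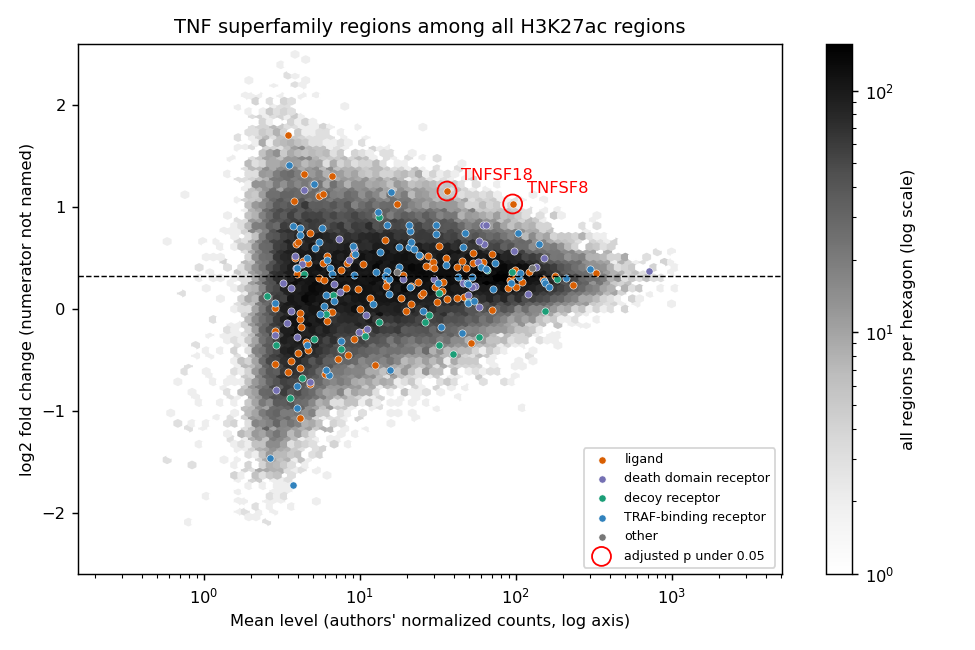
Mean level (log axis, normalized counts) against log2 fold change. Grey hexagons count those of all 91107 regions that lie within the plotted range, and coloured points are the 237 member regions by role. The dashed line is the median of 0.32 over regions with an adjusted p-value. Member points fill the same cloud as the rest, and the 2 circled calls, beside TNFSF18 and TNFSF8, sit at its upper edge.

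The call with the smaller p-value lay beside TNFSF8, the ligand of the lymphoma marker CD30 (the receptor TNFRSF8). The region (chr9:114892046-114897654) had a mean level of 95.5, or 17.0 per kb, and a fold change of 1.03 ± 0.23 on the log2 scale of the authors' deposited table, a ratio of 2.04, with p = 1.12e-05 and adjusted p = 0.0051 by DESeq2. It lay 32764 bases from the start, at the other end of the gene. RefSeq puts TNFSF8 at 114893343 to 114930595, so 1297 bases of the region lay outside the gene and 4311 inside it. Whether these bases are exonic was not analysed here. The call was lost once values were centred on the median of tested regions (adjusted p = 0.345 by Benjamini-Hochberg, from the errors of the authors' deposited table).

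The other 7 regions beside TNFSF8 were all positive as well, with values from 0.44 to 1.33 in the authors' deposited table, and none had the level needed for an adjusted p-value. The closest on one side (level 17.2) had 1.03 ± 0.41 with an unadjusted p = 0.0129, and the closest on the other (level 6.63) had 1.31 ± 0.64 with p = 0.0415 in the authors' deposited table. Their median with the call was 1.03, the highest of any family gene with more than 1 region. Regions named with other genes within 500 kb of the TNFSF8 start held 22 tested ones with a median of 0.10 in the authors' deposited table, and 13 of the 22 were positive, 1 of them a call. The 8 regions come from the same libraries and partly adjoin, so they are not independent, and the difference from the surroundings was not tested.

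The second call lay between TNFSF18 and TNFSF4, neighbouring genes whose products, the ligands of GITR and OX40, stimulate T cells. The region (chr1:173111705-173114009) had a level of 36.2 and a value of 1.16 ± 0.31 in the authors' deposited table, a ratio of 2.23, with p = 0.000189 and adjusted p = 0.0245 by DESeq2. It lay between genes in RefSeq, at a distance of -60742 bases from the TNFSF18 start. This call was lost with the same centring (adjusted p = 0.475) and with the DESeq2 p-values adjusted over all distinct regions (0.0605). The 2 regions that follow had smaller values, a difference that was not tested: the nearer (level 5.91) had 0.29 ± 0.67, and the next one (level 94.2) had 0.34 ± 0.24 in the authors' deposited table.

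That region belongs to the locus with the most member regions, where FASLG, TNFSF18 and TNFSF4 follow each other on chromosome 1 with 60 regions. The authors' deposited table gave 29 tested regions there, 26 positive and 3 negative, and their median was 0.34, near the 0.32 of all tested regions. The highest level was that of a region of 14600 bases between FASLG and TNFSF18 (chr1:172897610-172912210), with 329 normalized counts and 0.36 ± 0.20 in the authors' deposited table. The lowest tested value of the locus was -0.33 ± 0.29, beside FASLG (chr1:172760267-172763564), in the authors' deposited table. The region over the TNFSF18 start had 0.27 ± 0.31 in the authors' deposited table, and no region had a distance of 0 to FASLG or TNFSF4. A TNFSF18 region 69500 bases from the start had -0.02 ± 0.39 there.

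**Figure D3:**
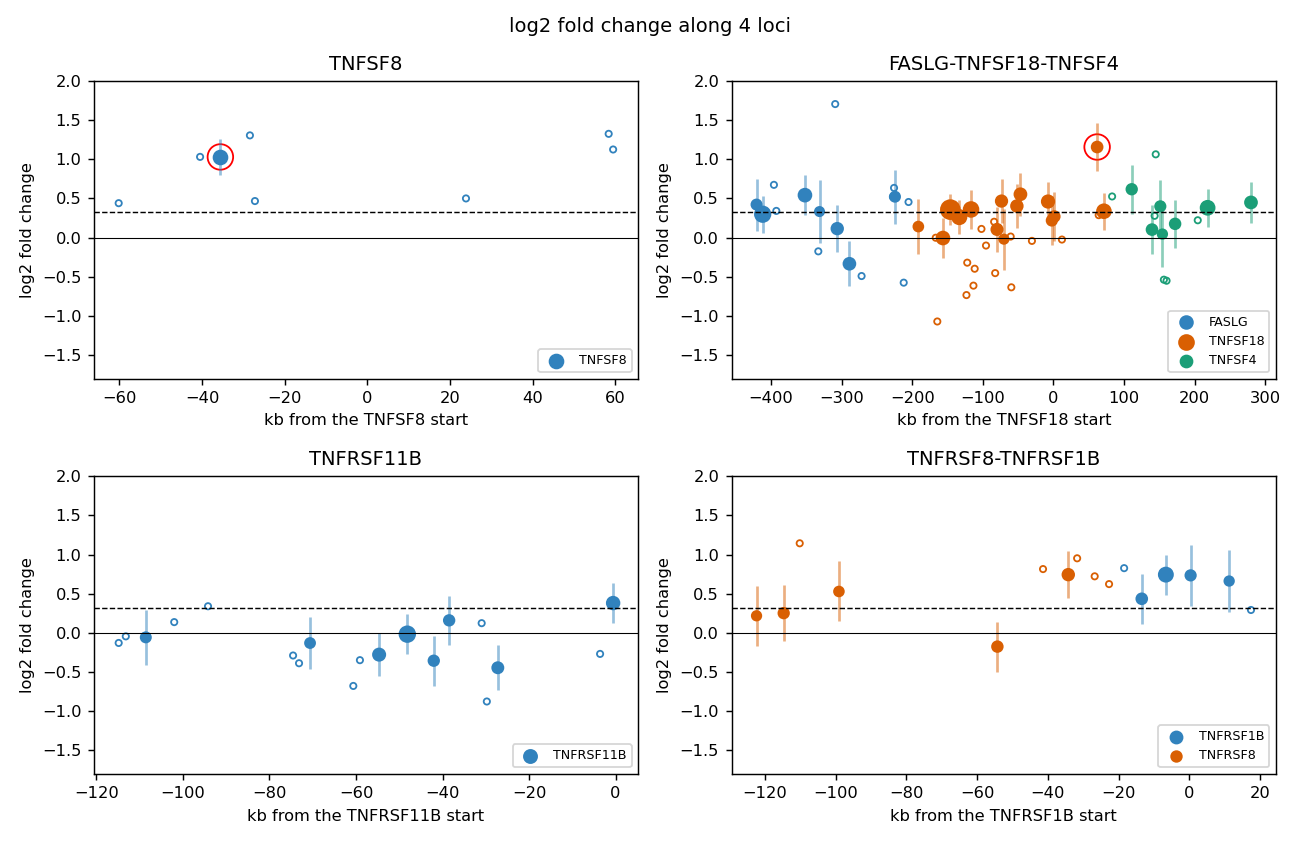
log2 fold change of each member region against its distance in kb from a gene start in 4 loci. Filled points with standard error bars have an adjusted p-value, with area growing with level, and open points have none. Red circles mark the 2 calls. The dashed line is the median of 0.32 over regions with an adjusted p-value. Points beside TNFSF8 all lie above 0, and most beside TNFRSF11B lie below it.

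The locus of TNFRSF11B, the osteoprotegerin gene, lay lowest. Of its 19 regions 14 were negative, with a median of -0.13, and of the 8 tested ones 6 were negative, against 4632 of all 36436 in the authors' deposited table. In the authors' deposited table the lowest of these 8 was -0.45 ± 0.29, at a region reaching into the gene (chr8:118923374-118926598). The highest was 0.38 ± 0.26 over the start (chr8:118950497-118952786), where the region also overlaps COLEC10 in RefSeq. Between these values lay -0.36 ± 0.32, -0.28 ± 0.28, -0.13 ± 0.33 and -0.06 ± 0.35 at 4 other regions of the authors' deposited table, and 0.16 ± 0.31 at another. The one of highest level, 154 (chr8:118900280-118907853), had -0.02 ± 0.25 in the authors' deposited table. No single region passed, and the lowest value had a DESeq2 adjusted p of 0.368. The 8 tested regions of other genes within 500 kb were all positive, at a median of 0.56 in the authors' deposited table. As only 4 other genes were named there, and neighbouring regions are not independent, the difference was not tested.

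TNFRSF8 and TNFRSF1B, neighbours on chromosome 1, had 15 positive regions of 16 and a median of 0.69 in the authors' deposited table. Over the 9 tested ones the median was 0.53, with 8 positive and 1, inside TNFRSF8, at -0.18 ± 0.32. TNFRSF1B carries TNF signals through TRAF adaptors alone. Its highest region, 3851 bases before the start (chr1:12157498-12163152, level 103), had 0.74 ± 0.26 with an adjusted p of 0.100, and the start itself 0.73 ± 0.39 with 0.284 in the authors' deposited DESeq2 table. Beside TNFRSF8, the receptor CD30, no region lay over the start, and the region of highest level (47.2) had 0.74 ± 0.30 and an adjusted p of 0.173 in the authors' deposited DESeq2 table. In the surroundings of TNFRSF1B, 19 of 30 tested regions of other genes were positive, and the authors' deposited table gave them a median of 0.15.

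The TRAIL receptors on chromosome 8 were even in direction. All 7 tested regions beside TNFRSF10A, TNFRSF10B and the decoy TNFRSF10D were positive, between 0.07 ± 0.28 and 0.83 ± 0.29, and their median was 0.42 in the authors' deposited table. So were all 26 tested regions of other genes within 500 kb of the TNFRSF10A start, whose median there was 0.32. A region 47641 bases from the TNFRSF10B start (0.67 ± 0.27) also reaches the gene RHOBTB2, and one inside TNFRSF10A had 0.64 ± 0.28 in the authors' deposited table. Regions beside TNFSF10, which encodes TRAIL itself, had values from -0.22 to 0.26 in the authors' deposited table, and none lay over its start.

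**Figure D4:**
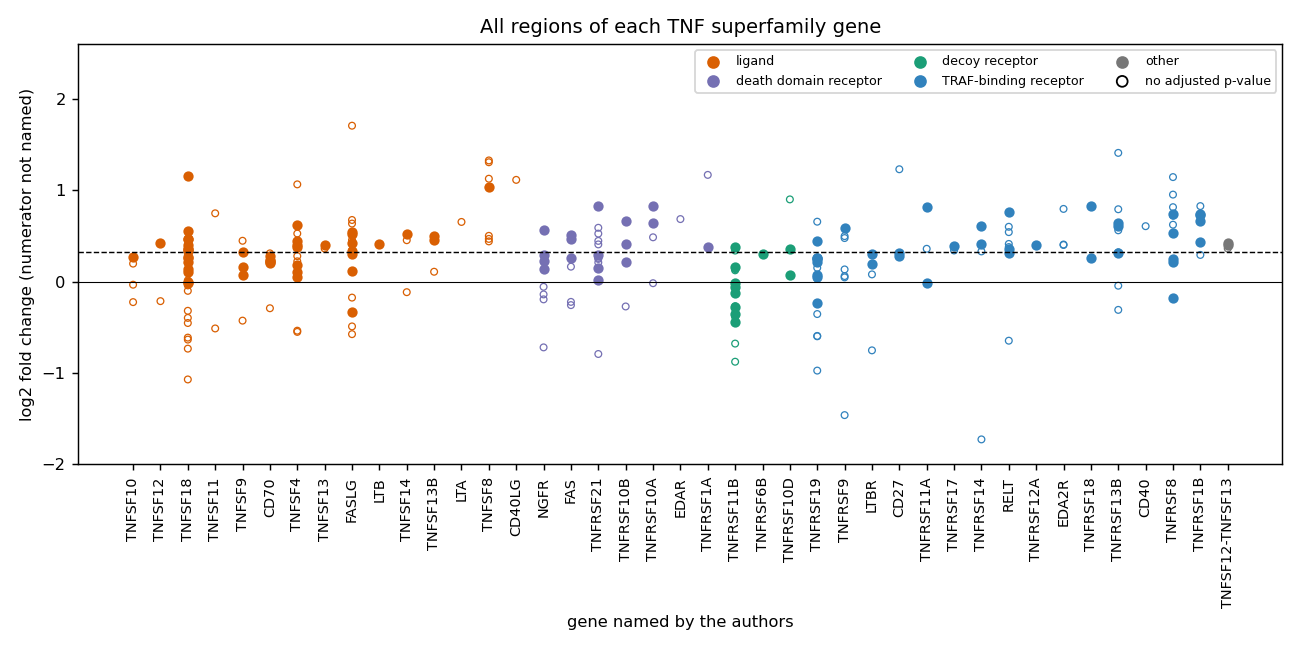
log2 fold change of every member region, by gene and role. Filled points have an adjusted p-value and open points do not. The dashed line is the median of 0.32 over regions with an adjusted p-value. TNFSF8 lies wholly above 0, and TNFRSF11B lies mostly below it.

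By role, the family split as follows, to be read against all tested regions, of which 1.67% were calls, 18.4% had an unadjusted p-value under 0.05 and 87.3% were positive. Ligands had 45 tested regions in the authors' deposited table, 2 of them calls, and a median of 0.33 among the 45. Of these, 5 (11.1%) had an unadjusted p-value under 0.05. Death domain receptors had 17, all positive, with a median of 0.37. Of these, 6 (35.3%), among them 2 beside TNFRSF10A and 1 beside its neighbour TNFRSF10B, had an unadjusted p-value under 0.05 in the authors' deposited table. There, TRAF-binding receptors had 36 with a median of 0.34, of which 33 were positive and 4 (11.1%) had an unadjusted p-value under 0.05. Decoy receptors had 11, of which 8 belong to TNFRSF11B, and the authors' deposited table gave a median of -0.02. None of these 11 had an unadjusted p-value under 0.05. No receptor region was a call among 64 tested ones, and 10 (15.6%) had an unadjusted p-value under 0.05 by DESeq2, all positive. The differences between roles were not tested.

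The 2 receptor regions with the next smallest adjusted p-values lay far from a start, and those after them lay 3851 bases from the TNFRSF1B start and over the TNFRSF10A start. A region inside TNFRSF21 (chr6:47239723-47245065), 64841 bases from its start, had 0.83 ± 0.26 and an adjusted p of 0.0703 in the authors' deposited DESeq2 table. One 104294 bases from TNFRSF13B (chr17:16860142-16867825), a B cell receptor for the ligands TNFSF13 and TNFSF13B, had 0.64 ± 0.22 and 0.0935 there. Other tested values above 0.75 in the authors' deposited table were those of TNFRSF18 (0.83 ± 0.38), the receptor GITR, of TNFRSF11A (0.82 ± 0.46), the receptor RANK, 59 bases from its start, and of RELT (0.76 ± 0.40). At the low end of the tested receptor values stood TNFRSF19 (-0.23 ± 0.30) and another TNFRSF11A region (-0.02 ± 0.37), beside those of TNFRSF11B and TNFRSF8.

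Position within the family was also described. Of the 237 regions, 88 overlapped the gene they were named with in RefSeq, 5 overlapped another gene and 144 lay between genes. The authors' deposited table gave a median of 0.40 for the 47 tested regions in their own gene and 0.26 for the 60 between genes. The own-gene class holds every tested start region of the family except that of TNFSF18. Over all tested regions the median was 0.35 at starts and 0.31 away from them. Values of the own-gene and between-gene classes over all regions were not computed. Among regions over no start, the median of the tested ones was 0.39 within 10 kb of the start, 0.30 from 10 to 100 kb and 0.28 beyond 100 kb in the authors' deposited table. Over all regions of the authors' deposited table the same classes had 0.35, 0.31 and 0.27.

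Genes that carry the signal onwards were taken from a list of 57 adaptors, kinases, NF-kappaB factors, death effectors and TNF-induced targets, of which 56 had a region. Of their 143 tested regions 2 were positive calls and 0 negative ones in the authors' deposited table, or 1.40% against the same 1.67%. The median was 0.34 in the list and 0.32 over all tested regions. NFKB2, the NF-kappaB subunit processed in the pathway below LTBR, was called at its start (chr10:102392895-102396724) with 0.88 ± 0.26 and an adjusted p of 0.0481 in the authors' deposited DESeq2 table. RBCK1, a subunit of the linear ubiquitin ligase, was called 4982 bases from its start (chr20:399322-403361) with 1.03 ± 0.27 and 0.0184, while its start region had 0.37 ± 0.24 in the authors' deposited table. Both calls were lost after centring, with adjusted p-values of 0.782 and 0.488, and that of NFKB2 also with the DESeq2 p-values adjusted over all distinct regions (0.117).

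Among start regions of that list, 47 of 49 (95.9%) were positive, against 98.1% of all tested start regions. Of the 49, 14 (28.6%) had an unadjusted p-value under 0.05 in the authors' deposited DESeq2 table, against 1922 of 9996 starts (19.2%) in all. Neither difference was tested. The 14 included the chemokine gene CXCL2 (0.75 ± 0.28), the cytokine gene IL6 (0.74 ± 0.27) and the adhesion gene ICAM1 (0.70 ± 0.24). With them stood the adaptor genes TRADD (0.69 ± 0.27) and TRAF5 (0.70 ± 0.26), and MLKL (0.63 ± 0.22), the effector of necroptosis. Adjusted p-values of these 6 ran from 0.105 to 0.155 by DESeq2, so none passed. The rest of the 14 were NFKB2, the only call among them, CXCL1 (0.64 ± 0.24), RIPK1, TRAF6, BCL2A1, IKBKB, REL and TNFAIP2. Not all TNF-induced targets were among the 14. The starts of SOD2 (0.50 ± 0.28), CXCL8 (0.37 ± 0.34), BCL3 (0.29 ± 0.30) and CCL2 (-0.19 ± 0.40) were not. The starts of the feedback inhibitors NFKBIA (0.42 ± 0.25) and TNFAIP3 (0.55 ± 0.31), of BIRC3 (0.33 ± 0.31) and of CASP8 (0.31 ± 0.24), the caspase recruited by FAS, did not pass in the authors' deposited table. Negative values with an unadjusted p-value under 0.05 stood, away from starts, beside BIRC2 (-0.59 ± 0.30) and TAB2 (-0.63 ± 0.28) in the authors' deposited table. These were 2 of the list's 143 tested regions, against 0.475% of all tested regions. Positive values with such a p-value numbered 23 of the 143, against 17.9% of all. In untested regions such values were negative beside the chemokine gene CCL2 (-1.25 ± 0.63 and -1.13 ± 0.43). Others there were positive, among them regions beside NFKB1 (1.09 ± 0.51) and TNFAIP3 (0.92 ± 0.44).

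**Figure D5:**
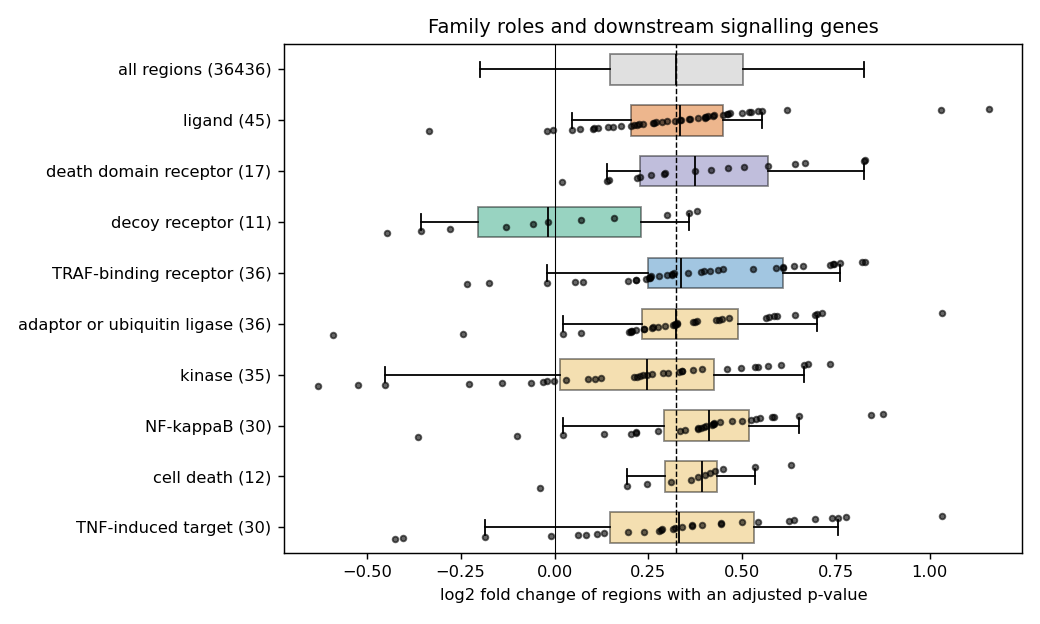
log2 fold change of regions with an adjusted p-value, for all regions, 4 family roles and 5 groups of signalling genes, with the number of regions in brackets. Boxes span the quartiles with the median as a line, whiskers run from the 5th to the 95th percentile, and points are single regions. The dashed line is the median of 0.32 over all such regions. The decoy receptors, mostly TNFRSF11B, are centred near 0 and the other boxes overlap that of all regions.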

How the data were processed

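The series profiled H3K27ac in A375 cells in 4 libraries, 2 per treatment group per the labels. The submitters' processing notes name Trim Galore, cutadapt, FastQC, Bowtie2, Picard, MACS2, featureCounts, DESeq2, bedtools 2.29.1 and the build hg38, with no roles or order. Whether peaks were called on single or pooled libraries, and whether libraries came from separate cultures, is not given in the sources used here. The values analysed were those of 1 comparison that the authors deposited. The mean level is a signal, the mean normalized count over libraries per the file headers. Fold changes and standard errors were deposited on the log2 scale, and the deposited score is their ratio, per the file headers. Each p-value and adjusted p-value is the authors' deposited one. An adjusted p-value of 1 was read as not computed, since Benjamini-Hochberg adjustment over the other 36436 regions gave the deposited values back to within 1.58e-14. The table holds no value per library, so depth and spread between replicates are unknown, the planned quasi-likelihood test could not be run, and the number of single-library columns left out was 0.

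Members were the table lines whose gene met the family's name rule, and lines repeating a region were merged by position. A distance of 0 in the table was taken as lying over the gene's start, which can differ from the RefSeq start. Of 62105 lines with another distance and a gene in the RefSeq promoter table (GRCh38.p14, the same build as hg38), 89.3% pointed to within 1 kb of a listed start. Centring subtracted 0.32, the median log2 fold change of regions with an adjusted p-value, took a two-sided normal p-value from the deposited standard error, and adjusted again over the same regions. In simulated data on those 36436 standard errors, this recovered 96.0% of 200 regions changed by 2 on the log2 scale, with 11 false calls. Smaller changes were not simulated. The calls lost by centring had centred values from 0.55 (NFKB2) to 0.83 (TNFSF18), so recovery at their size is unknown. Motifs were searched on both strands of the 250 bases before each RefSeq start, with family promoters on chromosome 8 left out. Python 3.11.15, pandas 2.3.3 and scipy 1.17.1 were used. Named regions were all calls, the 10 largest and 10 smallest log2 fold changes among member regions with an adjusted p-value, the start region of each gene, the regions of highest level in each role, regions shared with other genes, and set regions of the signalling list. Of the signalling genes set in advance, TRAF1 had no region over its start. The members, roles and lists were chosen with earlier results of these data known. The locus descriptions, including the 500 kb neighbourhoods, and the printed sequences were chosen after values were seen. So were other named regions, among them that of TNFRSF13B and further ones of the signalling list.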

Additional observations from a re-analysis of the deposited data

How the results depend on the processing

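The 2 calls among the members fell to 1 at a threshold of 0.01, to 1 with adjustment over all distinct regions, and to 0 with centring, whether on the median of tested regions or on that of the region's own bin of level. The 2 calls of the signalling list became 0, 1, 0 and 0 in these settings, and 1 where only changes of 1 or more on the log2 scale were counted. TNFSF8 kept its call over all distinct regions (adjusted p 0.0128) and TNFSF18 did not (0.0605). After centring their adjusted p-values were 0.345 and 0.475. RBCK1 kept its call over all distinct regions (0.0458) and NFKB2 did not (0.117). After centring these were 0.488 and 0.782. Of 22 regions examined singly, the other 18 passed in none of these settings. The median log2 fold change of the members, 0.29, was 0.37 with each gene counted once and 0.23 as a mean. The positive share, 73.8%, was 85.5% for mean levels from 10 upwards, 89.0% for tested regions and 97.6% with each gene counted once. Over all regions, the first 2 of these filters gave 84.1% and 87.3%. The 97.6% is the share of genes whose median was positive, not a share of regions, and was not computed over all genes. With each gene left out in turn the median ran from 0.28 without TNFSF8 to 0.31 without TNFRSF11B, positive shares from 72.9% without TNFRSF21 to 78.0% without TNFRSF11B, and a median over starts from 0.37 to 0.38. No paired analysis was possible because the table used gives only 1 value per region for all libraries together. The settings planned on counts, the replicate block and each library left out were not run.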
